A study of Mus musculus with 24 samples.

Results

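Mammary tumours of mice given entinostat together with an antibody to CTLA-4 (ENT+CTLA4, 4 samples, replicates 1, 2, 5 and 6) were compared with tumours of vehicle-treated mice (4 samples, replicates 1, 2, 3 and 5), which are 8 of the 24 samples of the series. The samples were chosen by their titles alone. All mice were female neu-N animals on the FVB background. Their mammary fat pad had been injected at 7 to 8 weeks of age with NT2.5 cells, a line from a spontaneous neu-driven mammary tumour, and treatment began 3 days later and lasted 3 weeks. ENT+CTLA4 mice received entinostat at 5 mg/kg by mouth each day in 0.5% methylcellulose and anti-CTLA-4 at 100 µg by intraperitoneal injection 2 times per week. Vehicle mice received 0.5% methylcellulose and isotype antibodies. The other 16 samples received entinostat alone or with anti-PD-1, both checkpoint antibodies, or anti-CTLA-4 with anti-HER2.

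The protocol states that experiments in these mice were run both with and without anti-HER2, and the titles of the 8 samples name no anti-HER2. There was no arm of anti-CTLA-4 without entinostat among these samples, so the comparison is of the pair of agents against neither. The tumours came from 1 transplanted line. The labels call the source whole tumour, whereas the extraction protocol ends with isolated immune cells. The tumour cell genes Epcam and Cdh1 were at 5045 or more and 1332 or more in all 8 samples, and the fibroblast collagen Col3a1 at 3192 or more, so tumour and stromal RNA was present. The labels name separate tumours without saying more about the animals, so p-values measure the spread between samples. In the limma fit that spread is shared over 22 samples in 6 groups and not taken from these 8 alone.

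Entinostat inhibits class I histone deacetylases, enzymes that remove acetyl groups from histones, and has been studied for its effect on myeloid cells in tumours. CTLA-4 sits on activated and regulatory T cells and competes with the costimulatory receptor CD28 for CD80 and CD86 on antigen-presenting cells, and the antibody blocks it. Mammary tumours of this kind hold many macrophages and neutrophil-like cells. Some of these suppress T cells, and they carry genes such as S100a8, Arg1 and Il1b.

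Transcripts were counted with nCounter probes for 770 genes. The deposited values are counts scaled by 1 factor per sample to a common level of the housekeeping genes, and 1 unit is about 1 counted molecule after that scaling. Total counts were 253341 to 460020 in vehicle and 346883 to 483418 in ENT+CTLA4. Genes with a value of 20 or more in at least 4 of the 24 samples were tested (621 of 770), on log2(value + 1). The added 1 by itself makes fold changes of weak genes smaller. Genes with a value of 50 or more in at least 4 of the 8 samples (390, all tested) are described first and are called well-measured genes here. Just inside that limit by the highest value that 4 samples reach were Tlr8 and Dll4 (50.2 and 51.2), and just outside were Btla, Fas and Ccl12 (49.8, 49.8 and 49.9).

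All 4 vehicle samples ran on one cartridge and all 4 ENT+CTLA4 samples on the other, so treatment and cartridge cannot be told apart. The mean of the 8 negative control probes, which match no mouse transcript, was 6.93 to 10.5 in vehicle and 3.59 to 5.47 in ENT+CTLA4 after scaling, with no overlap. Over all 24 samples the unscaled mean was 7.00 to 10.9 on the vehicle cartridge and 4.00 to 6.00 on the other. This floor moves with treatment, and a gene at the floor in both groups would show a negative change from it alone. With negative controls subtracted, the median change of all genes tested was 0.03, against −0.06 without. For the weak genes that passed, the number of samples above the floor (by 2 SD of the control probes) is given. Values are listed in the order of replicates 1, 2, 3 and 5 for vehicle and 1, 2, 5 and 6 for ENT+CTLA4, and changes are log2 of ENT+CTLA4 over vehicle ± SE.

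Of the 621 genes tested, 9 fell past the limma threshold (adjusted p under 0.05) and 0 rose. These are 1.45% lower and 0% higher, and 16.6% of the genes (79 lower and 24 higher) had an unadjusted p under 0.05. Among the 390 well-measured genes that count was 24 lower and 18 higher. Only 1 of the 9, Nod1, was among the 390 well-measured genes (0.256%), and the other 8 had means of 20.8 to 36.7 in vehicle. The 9 calls were lost when vehicle replicate 1 or replicate 5 was left out (0 calls each), came to 2 without vehicle replicate 2 and to 22 without vehicle replicate 3, and were 3, 5, 6 and 10 without ENT+CTLA4 replicates 5, 2, 6 and 1. On recovered counts, edgeR called 2 genes higher and 7 lower, and DESeq2 called 8 higher and 13 lower. The 8 genes that DESeq2 called higher were Cd69, Clec5a, Cx3cr1, Fcgr4, Il1b, Lyn, Mapk14 and Trem1, and edgeR called Clec5a and Mapk14.

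**Figure D1:**
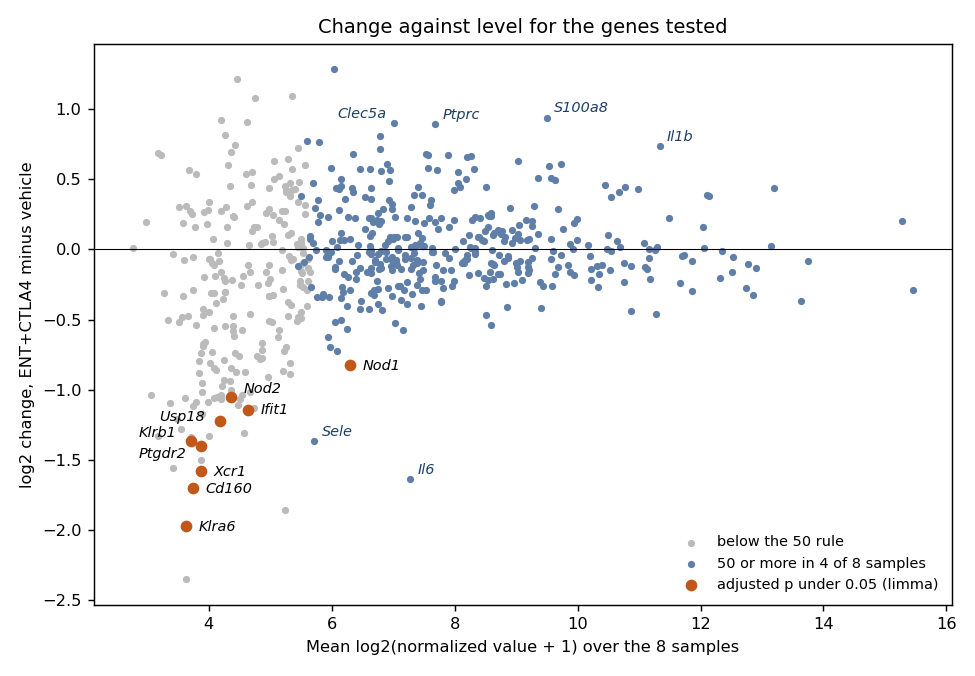
Each point is 1 of the 621 genes tested, with its mean log2(normalized value + 1) over the 8 samples on the horizontal axis and its log2 change on the vertical axis. The genes past the limma threshold (orange) lie at the weak end except Nod1, while Clec5a, Ptprc, S100a8 and Il1b lie among the well-measured genes with positive changes and Il6 and Sele with negative ones.

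Among the well-measured genes, 24 had all 4 ENT+CTLA4 samples above all 4 vehicle samples (6.15% of 390) and 17 had them all below (4.36%), against 4.83% and 7.89% of all genes tested. Of the 24, 4 are on the neutrophil list, 3 on the macrophage and monocyte list and 3 on the interleukin 1 list, and none passed in the limma fit (adjusted p from 0.103 to 0.769). Of the 41, 37 still did not overlap after the negative controls were subtracted. The median change was −0.01 over the well-measured genes and −0.06 over all genes tested. In these bulk samples more cells of a type and more RNA per cell cannot be told apart.

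Of the 19 tested genes of the neutrophil and granulocytic list, 14 had positive changes and 5 negative, with a median of 0.44 (0.26 without vehicle replicate 1), and none passed the test. S100a8, a subunit of the calprotectin dimer of neutrophils and monocytes, was at 422, 586, 575 and 514 in vehicle and 989, 961, 669 and 1555 in ENT+CTLA4. Every ENT+CTLA4 sample lay above every vehicle sample, with replicate 6 far above the others, and the change was 0.94 ± 0.54 (limma adjusted p = 0.411). Trem1, which amplifies inflammatory signals on neutrophils and monocytes, was at 83.0, 98.4, 85.7 and 75.4 in vehicle and 148, 165, 127 and 127 in ENT+CTLA4. Its groups were also apart (0.72 ± 0.29, limma adjusted p = 0.221).

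Clec5a, a lectin receptor of myeloid cells, was at 67.8, 84.2, 102 and 131 in vehicle and 187, 150.0, 197 and 172 in ENT+CTLA4. The lowest treated sample, replicate 2, lay above the highest vehicle sample, replicate 5, and the change of 0.90 ± 0.28 had the lowest limma adjusted p of the 24 genes (adjusted p = 0.103). Il1r2, the decoy receptor for interleukin 1, was at 107, 177, 149 and 163 in vehicle and 268, 269, 232 and 181 in ENT+CTLA4. Here treated replicate 6 came within 4.06 units of the highest vehicle sample. Csf3r, the receptor for the neutrophil growth factor G-CSF, and Cxcr2, the receptor that guides neutrophils, overlapped between groups, with changes of 0.45 ± 0.29 and 0.44 ± 0.31. Of the CXCR2 ligands, Cxcl2 was 0.63, Cxcl1 −0.12 and Cxcl5 −0.72, with both signs among the 3. Cxcl5 was at 99.7, 87.0, 68.0 and 95.9 in vehicle and 39.0, 74.0, 43.8 and 58.3 in ENT+CTLA4, and only treated replicate 2 reached into the vehicle range (limma adjusted p = 0.108).

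**Figure D2:**
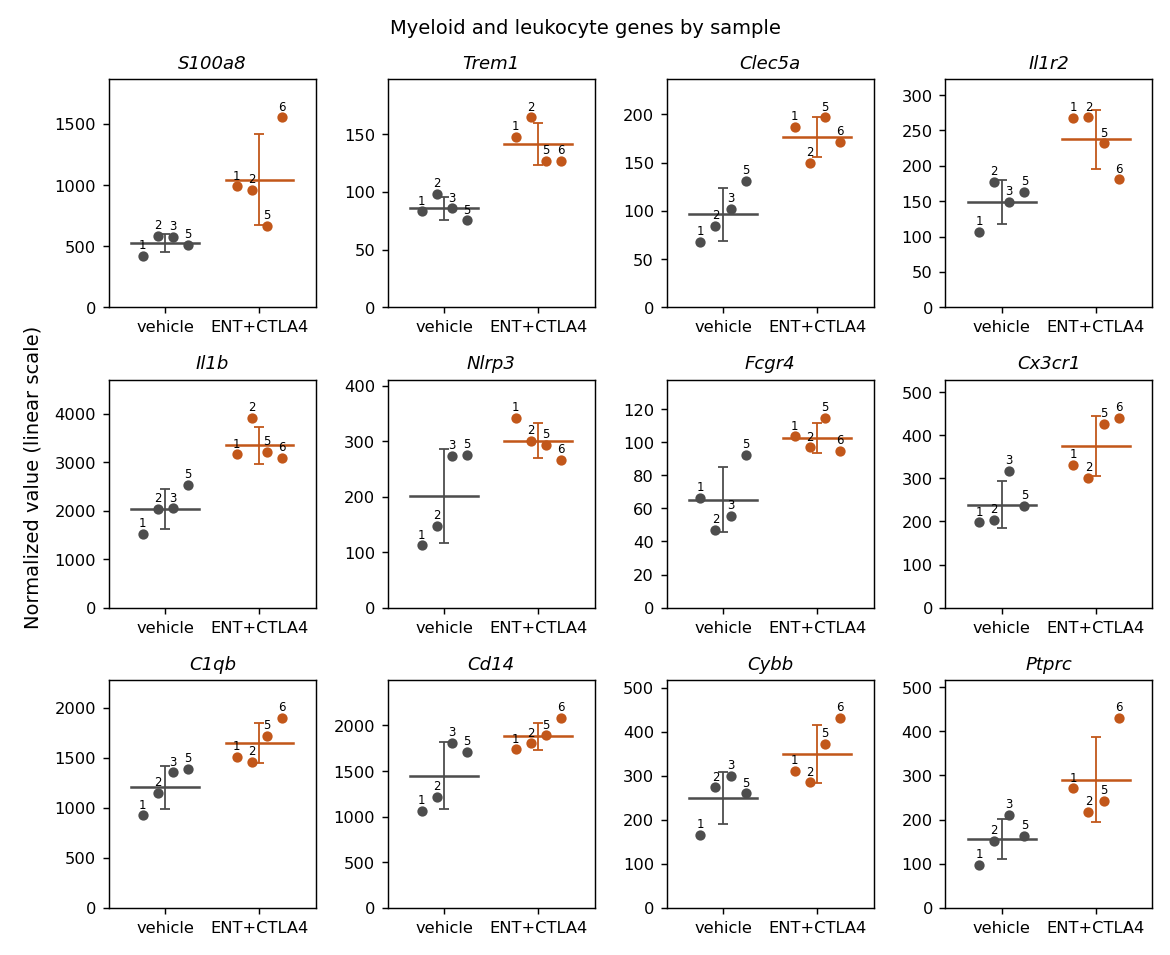
Normalized value (linear axis from 0) of 12 myeloid and leukocyte genes in the 4 vehicle and 4 ENT+CTLA4 samples, labelled by replicate number, with the group mean (line) and SD (bar). The groups do not overlap for S100a8, Trem1, Clec5a, Il1r2, Il1b, Fcgr4, C1qb and Ptprc, and they overlap for Nlrp3, Cx3cr1, Cd14 and Cybb.

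The interleukin 1 system list had 12 of 17 tested genes with positive changes, a median of 0.12, and no gene past the test. Il1b, the secreted cytokine, was at 1517, 2040.2, 2048 and 2528 in vehicle and 3165, 3926, 3220.1 and 3086 in ENT+CTLA4. All 4 treated samples exceeded all 4 vehicle samples (0.74 ± 0.27, limma adjusted p = 0.160). Casp1, the protease that cuts the Il1b precursor, was at 199, 211, 186 and 209 in vehicle and 228, 237, 243 and 231 in ENT+CTLA4, a small difference with no overlap (0.22 ± 0.09). Nlrp3, the sensor that activates Casp1, was at 112, 147, 274 and 275 in vehicle and 343, 301, 294 and 266 in ENT+CTLA4. Vehicle replicates 3 and 5 lay at the treated level and replicates 1 and 2 well below it (0.67 ± 0.32). Il1a was 0.58 ± 0.32 and Ptgs2, which makes prostaglandins downstream of interleukin 1, 0.51 ± 0.29, both overlapping between groups. Il18r1, a receptor chain of the related cytokine interleukin 18, went the other way, at 435, 434, 426 and 412 in vehicle and 221, 312, 405 and 322 in ENT+CTLA4 (−0.47 ± 0.22, limma adjusted p = 0.298).

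Macrophage and monocyte genes had positive changes in 20 of 26 tested members (median 0.33, and 0.21 without vehicle replicate 1) and in 19 of the 20 well-measured ones, where the median was 0.38. Over all well-measured genes 47.9% were positive and 52.1% negative. None passed the limma test. C1qb, a complement chain made by macrophages, was at 926, 1151, 1356 and 1393 in vehicle and 1512, 1459, 1719 and 1899.8 in ENT+CTLA4. The groups were just apart (0.46 ± 0.30), and C1qa was similar (0.37 ± 0.31). Fcgr4, an activating receptor for IgG, was at 66.4, 47.1, 55.4 and 92.5 in vehicle and 104, 96.9, 115 and 94.8 in ENT+CTLA4. Vehicle replicate 5 came closest to the treated range (0.68 ± 0.24, limma adjusted p = 0.145).

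The other Fc gamma receptors Fcgr1, Fcgr2b and Fcgr3 overlapped between groups, with changes of 0.29, 0.22 and 0.44. Cx3cr1, the fractalkine receptor of monocytes and macrophages, was at 198, 204, 317 and 236 in vehicle and 331, 301, 427 and 441 in ENT+CTLA4, and only vehicle replicate 3 reached into the treated range (0.66 ± 0.27). The defining macrophage genes Cd68 and Csf1r had smaller changes (0.22 ± 0.31 and 0.18 ± 0.36), as was the mannose receptor Mrc1 (0.16 ± 0.69). Not every member lay on that side. Chil3 and Ccl24, linked to alternatively activated macrophages, had all 4 treated samples below all 4 vehicle samples, at levels under 61 (−0.70 ± 0.59 and −2.35 ± 1.02).

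Ptprc, which encodes the leukocyte surface protein CD45, was at 98.3, 151, 211 and 163 in vehicle and 271, 217, 243 and 430.3 in ENT+CTLA4. All treated samples lay above all vehicle samples, and vehicle replicate 1 and treated replicate 6 were the extremes (0.89 ± 0.43, limma adjusted p = 0.299). The pan-leukocyte list was positive in 8 of 10 tested genes (median 0.43, and 0.29 without treated replicate 6) and the MHC class II list in 6 of 8 (median 0.38, and 0.24 without vehicle replicate 1), with none past the test. The class II chain H2-Ab1 was at 1240.1, 1454, 2249.6 and 2224 in vehicle and 3215, 2176, 1741 and 2437 in ENT+CTLA4 and overlapped (0.43 ± 0.54). With cartridge as a block the pan-leukocyte and MHC class II medians were 1.25 and 1.43, and that of the macrophage list was 1.25. That block is tied through 2 samples whose titles repeat those of entinostat plus anti-PD-1. With it the median of all genes tested was 0.31, and 0 genes passed. Among genes of suppressive myeloid cells the median was 0.01, with either sign across alternatives, and 0.67 with the block. Arg1, the arginase that depletes arginine, was −0.21 ± 0.41, and Nos2, the inducible nitric oxide synthase, was at 31.8, 40.0, 30.2 and 45.7 in vehicle and 25.7, 27.1, 17.3 and 18.6 in ENT+CTLA4. All treated Nos2 values were below all vehicle values (−0.72 ± 0.21, limma adjusted p = 0.0927), but every one was under 50.

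Nod1, a cytosolic sensor of bacterial peptidoglycan, was the 1 well-measured gene that passed. It was at 120.4, 89.9, 96.6 and 109.6 in vehicle and 59.5, 44.8, 66.6 and 63.7 in ENT+CTLA4. The highest treated sample, replicate 5, lay well below the lowest vehicle sample, replicate 2. The mean fell from 104 ± 13.6 to 58.7 ± 9.69 (SD, n = 4 each), a change of −0.82 ± 0.19 (limma adjusted p = 0.0368). It kept its sign under all 23 alternatives and passed under 8, with changes from −0.90 to −0.21 and adjusted p from 0.004 to 0.717. Some of these alternatives alter only the filter, the trend or the samples that share the spread, and cannot move the change itself. Of the 8 fits without 1 sample, it passed in the fit without vehicle replicate 3 alone. Nod2, a related sensor, was weaker, at 29.1, 29.96, 26.0 and 29.7 in vehicle and 17.4, 9.37, 13.7 and 14.0 in ENT+CTLA4. It fell by the test as well (−1.05 ± 0.26, limma adjusted p = 0.0422), with 4 vehicle and 3 treated samples above their negative controls by 2 SD. With cartridge as a block, tied through 2 samples whose titles repeat those of entinostat plus anti-PD-1, Nod2 was 0.59. The other 14 tested genes of the cytosolic sensor list did not pass, and the RNA sensors Ddx58 and Ifih1 were −0.10 and −0.34. Over all genes tested 1.45% passed.

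Il6, an inflammatory cytokine, had the most negative change of the well-measured genes, at 292, 244, 411 and 191 in vehicle and 116, 27.1, 119 and 152 in ENT+CTLA4. All treated samples lay below all vehicle samples, treated replicate 2 by far the lowest, and the change of −1.64 ± 0.77 did not pass (limma adjusted p = 0.287). Il6 kept its sign under 22 of 23 alternatives, with changes from −1.91 to 0.67. Sele, the endothelial selectin that catches leukocytes on inflamed vessels, was also lowest in treated replicate 2, at 69.2, 65.6, 136 and 78.8 in vehicle and 30.8, 9.37, 61.1 and 55.2 in ENT+CTLA4 (−1.37 ± 0.68, limma adjusted p = 0.325). Psmb9, a subunit of the immunoproteasome that cuts peptides for MHC class I, was at 95.5, 81.3, 71.4 and 69.7 in vehicle and 52.3, 36.5, 52.0 and 54.4 in ENT+CTLA4 (−0.70 ± 0.25). Its partner Psmb8 differed by less than its SE (0.07 ± 0.19). Vhl, the ubiquitin ligase subunit that degrades hypoxia-inducible factors, was at 77.5, 94.2, 75.6 and 89.1 in vehicle and 57.5, 61.5, 54.8 and 61.4 in ENT+CTLA4 and missed the threshold narrowly (−0.51 ± 0.13, limma adjusted p = 0.0545). Other well-measured genes below vehicle in every sample included Bst1, Bcl6, Alas1, Cd200, Atg12, Ifih1, Smad2, Itgb3 and Lamp1, with changes from −0.44 to −0.14. Alas1 is 1 of the 20 housekeeping genes used for the scaling. Sele, Psmb9, Ifih1 and Alas1 each kept their sign under 22 of 23 alternatives, and their highest changes were 0.02, 0.13, 0.24 and 0.03.

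Interferon-stimulated genes are switched on through an element in their promoters, the ISRE, which interferon-activated transcription factors of the IRF family bind. Ifit1 of this list fell, and the windows are printed to show the letters that it shares with 2 list members that did not pass. The sequences are those before the transcription start in RefSeq (GRCm38.p6), 5′ to 3′ on the gene's strand, and the capitals mark the ISRE core, which is GAAA, any 2 bases and GAAA again, or TTTC, any 2 bases and TTTC where it lies on the other strand, with overlapping matches merged.
Ifit1, chr19:34640769-34640828, plus strand: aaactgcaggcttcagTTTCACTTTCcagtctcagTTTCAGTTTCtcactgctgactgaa
Ifit3, chr19:34583365-34583424, plus strand: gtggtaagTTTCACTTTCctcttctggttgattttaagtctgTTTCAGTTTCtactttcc
Isg15, chr4:156200856-156200915, minus strand: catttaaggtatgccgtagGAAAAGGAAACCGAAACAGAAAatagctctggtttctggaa

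Within 250 bases before the start, 9 of the 21 list genes with a promoter in the table held a match on either strand, against 3.46% of 27025 genes with a promoter. A match is a description of the letters and not a binding site. Of the 9 with a match 8 had negative changes (median −0.25), and of the 10 tested genes without one 8 did (median −0.10).

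Over the whole type I interferon list, 20 of 24 tested genes had negative changes, with a median of −0.18. Over all genes tested 57% were negative and 43% positive. In the list 2 genes passed, both weak, against 1.45% of all genes tested. The median was −0.05 with negative controls subtracted and 0.28 with cartridge as a block. Ifit1, which binds viral RNA, was at 45.7, 41.4, 27.7 and 32.0 in vehicle and 16.4, 14.6, 13.7 and 18.6 in ENT+CTLA4. The groups were clearly apart, and all 8 samples were above their negative controls by 2 SD (−1.14 ± 0.25, limma adjusted p = 0.0307). Usp18, which removes ISG15 and restrains interferon signalling, was at 27.7, 42.8, 16.8 and 25.1 in vehicle and 8.21, 14.6, 7.30 and 15.5 in ENT+CTLA4. It was above the controls in 4 vehicle samples, but treated replicates 1 and 5 lay within 2 SD of their negative controls, so the size of the fall is not measured (−1.22 ± 0.28, limma adjusted p = 0.0368, 0.28 with cartridge as a block).

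The 12 well-measured interferon genes had a median of −0.10 and none passed. Ifi27 was −0.26 ± 0.09 and Bst2, which tethers viruses, −0.21 ± 0.11, while Isg15 was −0.09 ± 0.24. Ifitm1, a membrane protein that blocks viral entry, had all treated samples above all vehicle samples, at 111, 129.8, 202 and 169 in vehicle and 290.4, 219.8, 238 and 211 in ENT+CTLA4 (0.67 ± 0.28, limma adjusted p = 0.237).

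The other 5 genes that passed all lay near the negative controls in the treated samples. Cd160, found on NK cells and on cytotoxic T cells, was at 24.9, 27.1, 17.6 and 23.98 in vehicle and 9.23, 7.29, 6.39 and 3.88 in ENT+CTLA4 (−1.70 ± 0.30, limma adjusted p = 0.0117). It exceeded the negative controls by 2 SD in 4 vehicle samples and in 1 treated sample. Klrb1, an NK lectin receptor, was at 29.1, 17.1, 14.3 and 22.8 in vehicle and 7.18, 7.29, 7.30 and 6.99 in ENT+CTLA4 (adjusted p = 0.0126 by limma), above the controls in 2 vehicle samples and in 0 treated samples. Klra6, of the Ly49 receptors of NK cells, was at 23.5, 28.5, 14.3 and 32.0 in vehicle and 6.16, 4.17, 9.12 and 3.11 in ENT+CTLA4 (adjusted p = 0.0126 by limma), above the controls in 4 vehicle samples and in 0 treated samples. Ly49 genes are nearly identical, so which of them this probe counts is uncertain.

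Xcr1, a chemokine receptor that marks cross-presenting dendritic cells, was at 27.7, 40.0, 16.0 and 19.4 in vehicle and 13.3, 5.21, 9.12 and 4.66 in ENT+CTLA4, and Ptgdr2, which senses prostaglandin D2 on eosinophils and basophils, at 29.1, 21.4, 20.2 and 21.7 in vehicle and 8.21, 5.21, 8.21 and 11.7 in ENT+CTLA4 (adjusted p = 0.0368 for both by limma). Each exceeded the controls in 3 vehicle samples and 1 treated sample. For these 5 genes the treated level is at the floor, and the size of the fall is not measured. None of the 9 tested NK genes outside Ly49 and none of the 7 Ly49 probes was well measured. The dendritic cell list had positive changes in 11 of 16 tested genes, against 43% of all genes tested. In it 1 gene passed, against 1.45% of all genes tested. Its median was 0.18 (−0.005 without treated replicate 6), and all 5 of its well-measured members had positive changes. With negative controls subtracted, Cd160 alone was still called.

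**Figure D3:**
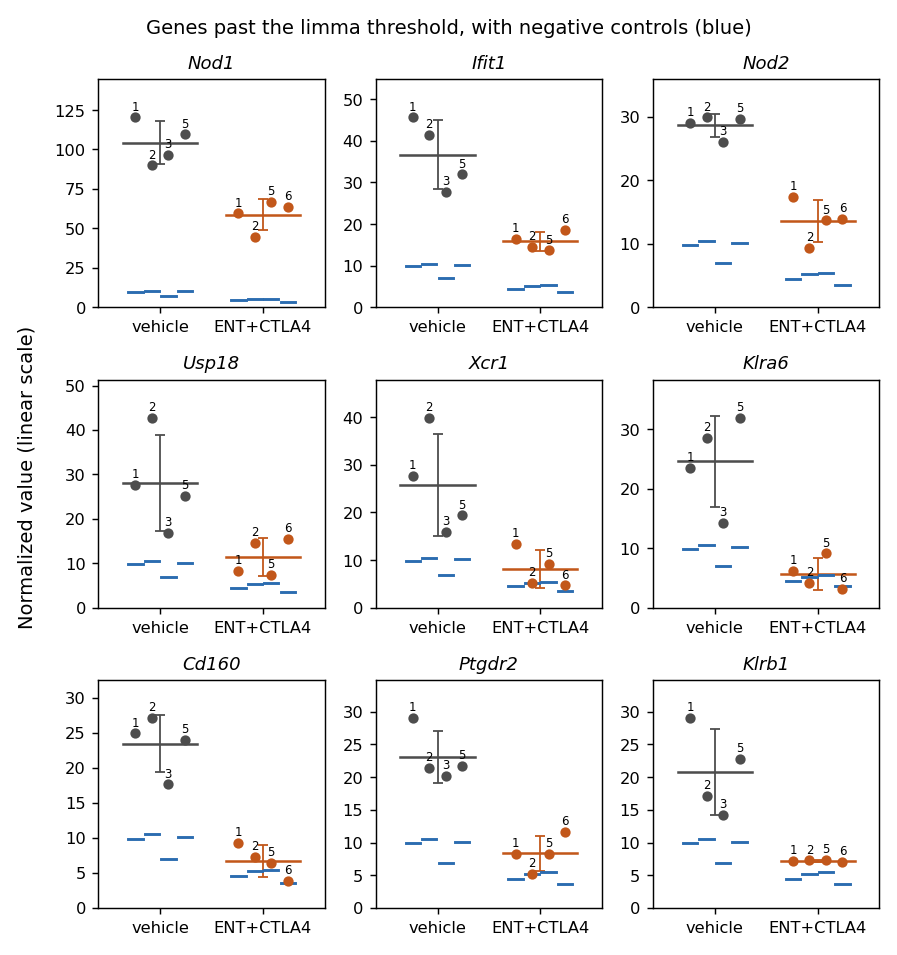
Normalized value (linear axis from 0) of the 9 genes past the limma threshold in each sample, labelled by replicate number, with group mean (line), SD (bar) and that sample's negative control mean (blue dash). Nod1 stays far above the dashes in both groups, whereas the treated values of Klra6, Cd160, Xcr1, Ptgdr2 and Klrb1 lie on or near them.

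Most genes of T cells were weak, and 2 of the 16 tested genes of the T cell list were well measured. The T cell receptor chain Cd3e was at 23.5, 7.13, 17.6 and 28.6 in vehicle and 12.3, 8.33, 4.56 and 66.8 in ENT+CTLA4, and Cd4 at 8.30, 7.13, 11.8 and 12.6 in vehicle and 7.18, 4.17, 2.74 and 34.2 in ENT+CTLA4. Cd3e was above the negative controls in 3 vehicle and 2 treated samples, and Cd4 in 1 and 1. ENT+CTLA4 replicate 6 stood apart in both, and in Icos, a costimulatory receptor of activated T cells, at 23.5, 12.8, 28.6 and 17.1 in vehicle and 14.4, 9.37, 4.56 and 109.5 in ENT+CTLA4. The 5 T cell markers that were tested, of 6 listed, summed to 39.6 to 496 in ENT+CTLA4 and to 71.3 to 99.3 in vehicle. The 496 is replicate 6. The T cell list median was −0.06, and −0.44 without that sample, and it was positive under 11 of the 23 alternatives. The cytotoxic genes Cd8a, Gzmb and Prf1 and the regulatory T cell factor Foxp3 were too weak to test.

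Ctla4, which encodes the antibody's target, was at 34.6, 40.0, 47.0 and 26.3 in vehicle and 17.4, 18.8, 18.3 and 30.3 in ENT+CTLA4 (−0.78 ± 0.74, limma adjusted p = 0.716). Treated replicates 1, 2 and 5 were below every vehicle sample, and replicate 6 was not. All 8 tested genes of the regulatory T cell list had negative changes (median −0.63, −1.03 without treated replicate 6 and 0.51 with cartridge as a block), 1 of them well measured, and none passed. Cd28, the costimulatory rival of CTLA-4, was −0.87 ± 0.33, and the shared ligands Cd80 and Cd86 were 0.35 ± 0.49 and 0.29 ± 0.34. Ctla4 and Cd28 each kept their sign under 22 of 23 alternatives, and their highest changes were 0.65 and 0.16. Cd274, which encodes PD-L1, differed by less than its SE (0.10 ± 0.43). Lag3, an inhibitory receptor of T cells, was at 49.8, 61.4, 60.5 and 63.9 in vehicle and 89.3, 88.5, 82.1 and 75.3 in ENT+CTLA4, above vehicle in every sample (0.50 ± 0.26, limma adjusted p = 0.344).

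**Figure D4:**
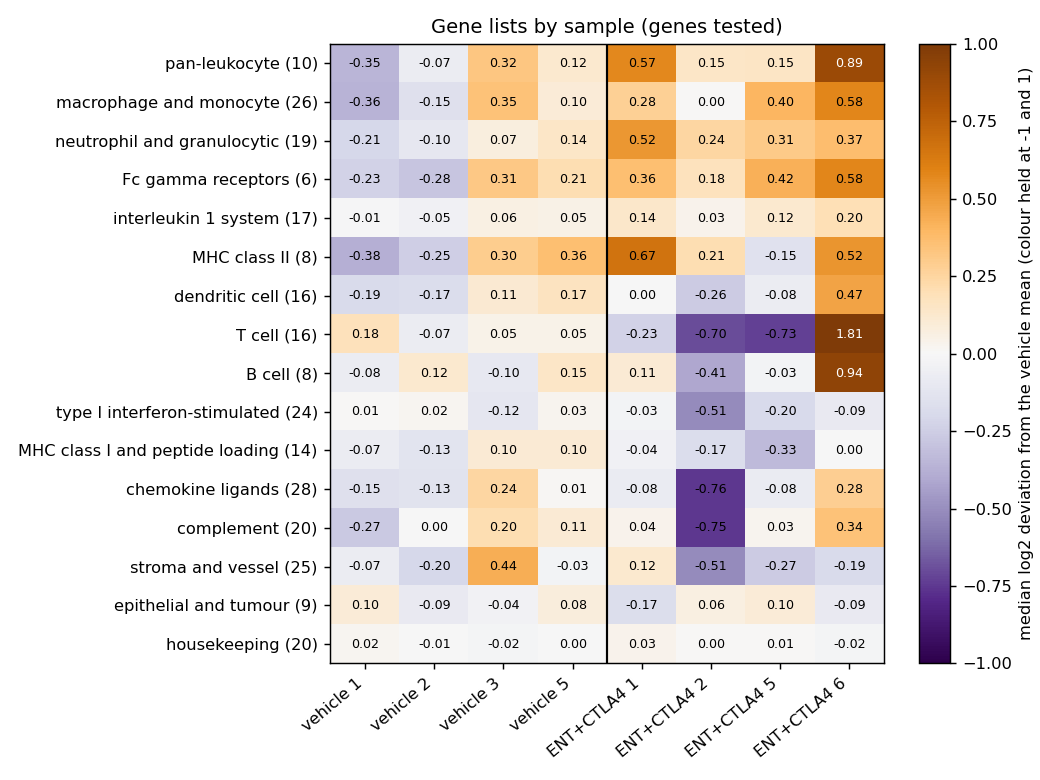
Median log2 deviation of the tested genes of 16 lists (rows, number of genes in brackets) from the vehicle mean in each of the 8 samples (columns), where colour runs from −1 (purple) to 1 (orange). The neutrophil list runs from −0.21 to 0.14 in vehicle and from 0.24 to 0.52 in ENT+CTLA4, and the T cell list reaches 1.81 in ENT+CTLA4 replicate 6.

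The treated samples differed among themselves along lines other than the T cell genes. The chemokine ligand list was at −0.76 in ENT+CTLA4 replicate 2 and at −0.08, −0.08 and 0.28 in replicates 1, 5 and 6, and the complement list at −0.75 and at 0.03 to 0.34. Ccl6, a myeloid chemokine, was at 54.0, 75.6, 111 and 69.7 in vehicle and 86.2, 7.29, 72.1 and 110.3 in ENT+CTLA4, and C1s1, a complement protease, at 158, 175, 203 and 159.9 in vehicle and 168, 44.8, 123 and 195 in ENT+CTLA4. Replicate 2 was the lowest sample in both, and in C1s1 treated replicate 5 also lay below every vehicle sample. Replicate 2 also had the lowest Il6 and Sele and the highest Il1b of the treated group.

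Stroma and vessel genes had negative changes in 22 of 25 tested members with a median of −0.16 (0.68 with cartridge as a block), and none passed. The endothelial markers Pecam1, Cdh5 and Kdr were −0.17 ± 0.48, −0.39 ± 0.40 and −0.14 ± 0.46, and the collagen Col1a1, of fibroblasts, was −0.04 ± 0.52. Vehicle replicate 3 was the high sample of this list (0.44), and without it the list median was −0.02. Without vehicle replicate 2 and treated replicates 1 and 2, each left out alone, it was −0.29, −0.36 and −0.04. The tumour cell genes Epcam, Cdh1 and Erbb2 differed by less than their SE. Epcam was at 6708, 6203, 5192 and 6124 in vehicle and 5737, 6921, 5688 and 5045 in ENT+CTLA4 (−0.05 ± 0.15), Cdh1 was −0.01 ± 0.14 and Erbb2, the mouse counterpart of the neu antigen, −0.05 ± 0.17. Hdac3, a class I deacetylase that entinostat inhibits and 1 of the housekeeping genes, was −0.08 ± 0.12.

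**Figure D5:**
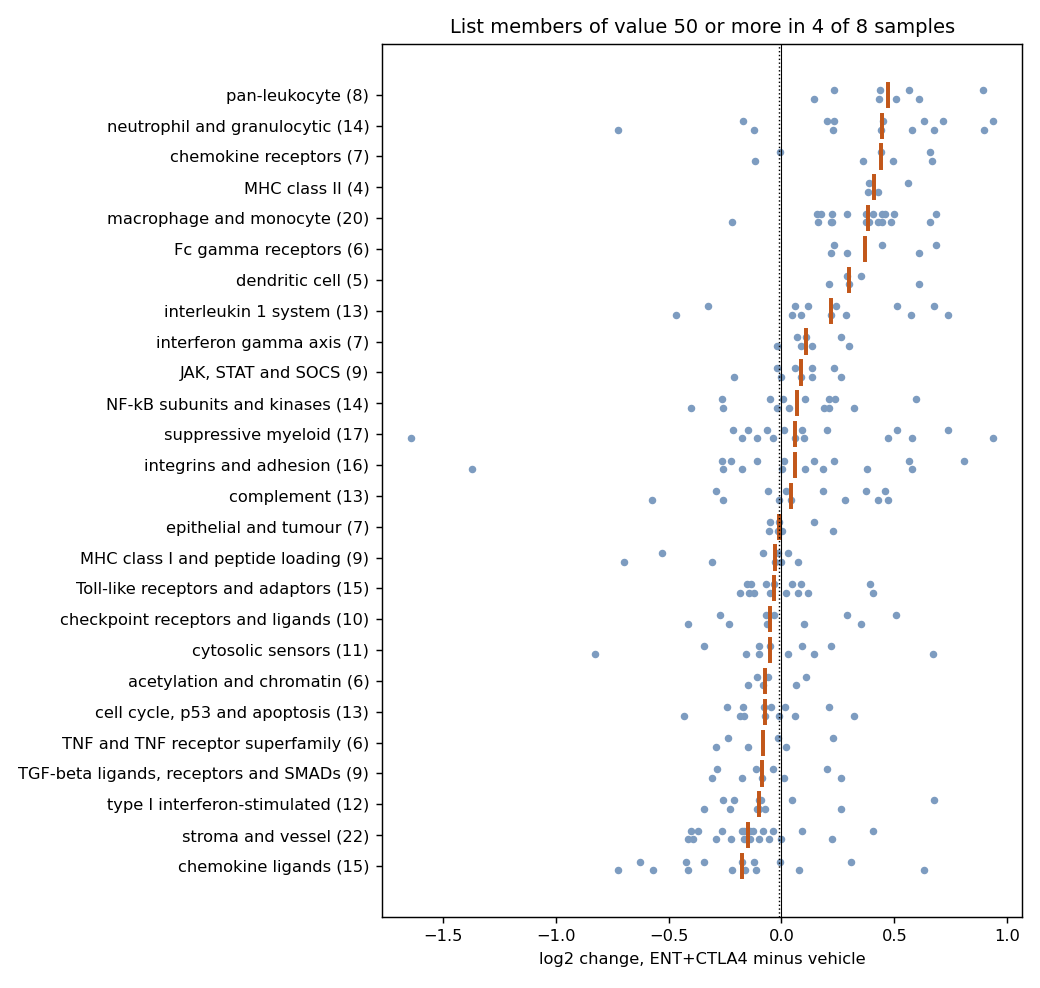
Log2 change of the well-measured members of each list (points, number in brackets), with the list median (orange bar), 0 (solid line) and the median of all 390 well-measured genes (dotted line, −0.01). Pan-leukocyte, neutrophil, chemokine receptor, macrophage, MHC class II and Fc gamma receptor medians lie between 0.37 and 0.47. Chemokine ligand, stroma and type I interferon medians lie between −0.18 and −0.10, and the interferon gamma median is 0.11.

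The levels of these genes in the other arms are given by cartridge. Of the 24 well-measured genes above vehicle in every sample, the mean of entinostat alone, on the vehicle cartridge, lay on the ENT+CTLA4 side of the midpoint between the 2 groups for 0, and that of entinostat plus anti-PD-1, also on the vehicle cartridge, for 16. On the ENT+CTLA4 cartridge the count was 17 for both antibodies, 23 for the anti-HER2 arm and 3 for the repeat-titled pair. These genes were picked because the 2 groups do not overlap, so the counts describe the arms and test nothing about cartridge. Of the 17 genes below vehicle, the counts were 9 for entinostat alone, 5 for entinostat plus anti-PD-1, 15 for both antibodies, 10 for the anti-HER2 arm and 12 for the pair. S100a8 had means of 379 with entinostat alone, 666 with anti-PD-1, 1078 with both antibodies and 6723 with anti-HER2 (n = 2).

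Nod1 was at 70.8 ± 7.40 (SD, n = 4) with entinostat alone, 98.0 ± 25.7 with anti-PD-1, 72.1 ± 12.2 with both antibodies and 101 ± 27.2 in the anti-HER2 arm (n = 2). The entinostat arm, on the vehicle cartridge, ranged from 62.2 to 78.2, below all 4 vehicle samples. Ifit1 was at 28.1 and 39.9 in those 2 arms of the vehicle cartridge, and at 18.4, 32.5 and 18.8 with both antibodies, with anti-HER2 and in the pair. None of the 9 genes called, nor of the 41 well-measured genes without overlap, separated all 12 samples of one cartridge from all 12 of the other. Each cartridge held several treatments, so this too describes the samples and tests nothing about cartridge.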

How the data were processed

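RNA of the tumours was counted on an nCounter instrument. The title names an immune panel and the label protocol a myeloid one, and gene names were taken from the table. The authors deposited normalized signal on a linear scale, and division by 1 factor per sample returned whole numbers (tolerance 0.05, 100% of values above 1). Limma is named in the submitters' processing notes, and its role there is not given in the sources used here, nor is the normalization. Per the file headers, control probes hold unscaled counts. Groups follow the titles.

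A single limma 3.58.1 fit (R 4.3.3, lmFit, eBayes with trend) over 22 samples in 6 groups tested log2(value + 1), two-sided, with Benjamini-Hochberg adjustment over 621 genes, and was checked on simulated data. The other arms share the estimate of spread, and the repeat-titled pair was left out. The number of samples, counting error of weak genes and the negative controls limit precision. EdgeR 4.0.16 and DESeq2 1.42.0 were run on recovered counts. Lists are described by counts and medians without a set test. Genes named were those called, up to 15 well-measured genes per direction without overlap, up to 3 per list, a fixed set of 54 and the neighbours of the limit of 50, and others (such as Cd69, Mapk14, Chil3 and Psmb8) were named after their values were seen. The comparison and its lists were chosen with earlier results of these data known. Replicate numbers did not pair the samples (correlations −0.131, 0.139 and 0.168). In all, 23 alternatives were run. A few genes are not reported here.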

Additional observations from a re-analysis of the deposited data

Results flagged for a closer look

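Of 272 groups of 4 samples examined, 22 had 1 sample standing apart by Dixon's criterion for 4 values, and chance flags about 1 in 20. No cause was tested.

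In ENT+CTLA4, replicate 6 stood high in the T cell and lymphocyte genes Cd3e (66.8), Cd4 (34.2), Icos (110, from 109.5), Ctla4 (30.3) and Cd37 (216). Replicate 2 stood low in the chemokine Ccl11 (20.8) and the immunoproteasome subunit Psmb9 (36.5) and high in Il1b (3926). Replicate 1 stood high in the adhesion molecule Ceacam1 (136), the endothelial Eng (233) and the adaptor Ticam1 (46.2) and low in the kinase Ikbke (53.4) and in Smad2 (86.2). Replicate 5 stood high in Arg1 (248).

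In vehicle, replicate 3 stood high in Arg1 (287), Egfr (63.0), the transcription factor Ets1 (718) and the class I chain H2-K1 (1601). Replicate 1 stood high in Cxcl10 (30.5) and low in the peptide transporter Tap2 (87.2). Replicate 2 stood low in Ceacam1 (61.4), and replicate 5 high in the mast cell tryptase Tpsab1 (236).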

How the results depend on the processing

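Against 9 genes lower, 0 higher and 1 well-measured call, the counts moved with most settings. No gene was called under quantile normalization, a filter at 50, a filter on the mean of the 8 samples, a fit of the 8 samples alone, or cartridge as a block (0 each, with 86, 52, 70, 136 and 80 at unadjusted p under 0.05). A floor of 20 left 1 (Ifit1) and subtraction of negative controls 1 (Cd160), with 0 well-measured calls in both. Well-measured calls were 2 under median rescaling (1 of them higher, Cd69), without trend and without Hdac3 and Alas1 in the scaling, 3 with edgeR (2 higher) and 9 with DESeq2 (8 higher). Without 1 replicate, genes called lower ran from 0 to 22 and well-measured calls from 0 to 3. Well-measured genes without overlap ran from 26 to 50 above and from 19 to 31 below, against 24 and 17. Leaving out a sample can only keep or raise those last counts. The replicate numbers share only a name, and the fit with the replicate block called 0 genes (76 at unadjusted p under 0.05).

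With cartridge as a block the median of all genes was 0.31, and Nod2 turned to 0.59 and Usp18 to 0.28. The medians of the macrophage, neutrophil and type I interferon lists were then 1.25, 0.51 and 0.28. The block rests on the 2 repeat-titled samples, whose identity is not settled. The neutrophil, macrophage, pan-leukocyte, MHC class II and Fc gamma receptor medians stayed positive under all 23 alternatives (0.26 to 0.59 for neutrophil). The other 7 genes called kept their sign under every alternative that tested them. Alternatives that change only the filter, the trend or the samples that share the spread leave each gene's change as it was. A gene's sign was fixed in advance there, and so was a list median where its members stayed the same. Weak genes are limited by the negative controls.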

Other observations

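The genes of this paragraph were chosen after their values were seen. Cd69, an early activation marker of lymphocytes that other leukocytes also carry, had the most positive change of the well-measured genes, at 27.7, 28.5, 46.2 and 78.8 in vehicle and 124, 86.5, 75.7 and 132 in ENT+CTLA4. Vehicle replicate 5 and treated replicate 5 overlapped by a small margin (1.28 ± 0.39, limma adjusted p = 0.103). In the other arms its mean was 46.0 with entinostat alone, 121 with anti-PD-1 and 106 with both antibodies, against 45.3 ± 23.9 (SD, n = 4) in vehicle. Of these 3 arms, the one with entinostat alone was within 1 SD of vehicle. Serpinb2, a plasminogen activator inhibitor of macrophages, was at 38.8, 72.8, 120.1 and 75.4 in vehicle and 18.5, 16.7, 15.5 and 26.4 in ENT+CTLA4, without overlap (−1.86 ± 0.79, limma adjusted p = 0.238).

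ENT+CTLA4 replicate 6 was also the high sample for other lymphocyte genes. Ccr7, which guides T cells and mature dendritic cells to lymph nodes, was at 37.4, 28.5, 58.8 and 46.8 in vehicle and 33.9, 29.2, 19.2 and 366 in ENT+CTLA4. The B cell gene Ms4a1, which encodes CD20, was at 20.8, 19.97, 11.8 and 19.4 in vehicle and 12.3, 7.29, 11.9 and 128 in ENT+CTLA4, and the T cell chemokine Ccl5 at 18.0, 8.56, 14.3 and 14.8 in vehicle and 38.0, 13.5, 12.8 and 164 in ENT+CTLA4. In all 3 genes it was above every other sample, and treated replicate 1 also exceeded every vehicle sample in Ccl5.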
